A study of Mus musculus with 12 samples.

Results

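The wells described here held single myenteric cells with transcripts of Nos1, the neuronal nitric oxide synthase, in which the peptide gene Cartpt was at least as abundant as the peptide gene Npy. They were chosen by 3 measured values: at least 2 Nos1 UMIs (unique molecular identifiers, 1 for each captured transcript molecule), and a raw Cartpt count at or above the raw Npy count. The rule was applied to the wells of the 6 CD49b- plates that had at least 1000 UMIs, at least 500 genes and under 20% of UMIs from mitochondrial genes. It found 161 wells, called Cartpt-Nos1 wells below, of 528 retained CD49b- wells and of 1150 wells in all. The other 367 retained CD49b- wells comprised 93 wells with at least 2 Nos1 UMIs in which Npy exceeded Cartpt (Npy-Nos1 wells) and 274 wells with fewer than 2 Nos1 UMIs (Nos1-low wells). Because Nos1, Cartpt and Npy set the classes, their levels are given as a description with no test.

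The cells came from the longitudinal muscle and myenteric plexus layer of the intestine of adult C57BL/6 mice. Every mouse had received 3 mg tamoxifen at 8 or 9 weeks of age, and every plate was sorted for a tdTom label tied to Dclk1. The 3 irradiated pools had been given 10.5 Gy 7 days after tamoxifen and were collected 3 days later, and the 3 homeostasis pools were collected 10 days after tamoxifen without irradiation. Each pool combined 2 mice, and the CD49b- gate took the cells that the labels call neuronal, so a plate is 1 sample in every test below. The label marks cells in which Dclk1 was active, so neurons without it are not sampled. Irradiated replicate 1 and homeostasis replicates 1 and 3 were treated with tamoxifen at 8 weeks, and irradiated replicates 2 and 3 and homeostasis replicate 2 at 9 weeks.

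Nitric oxide is made from arginine and is, with the peptide VIP, the main inhibitory signal from myenteric neurons to the gut muscle; neurons that use it also serve as descending interneurons. Citrulline left over from that reaction is returned to arginine by Ass1, which makes argininosuccinate, and Asl, which splits it. CART, NPY and galanin are neuropeptides that enteric neurons store together with these transmitters, and acetylcholine, made by Chat and loaded into vesicles by Slc18a3, marks the excitatory classes.

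The rule and the markers rest on peptide genes whose upstream sequences differ, and those are shown because cyclic AMP response elements are the classic regulatory element of peptide gene promoters. The 130 bases before the RefSeq start of each gene (GRCm38.p6) are given 5′ to 3′ on the strand of the gene, with TGACGTCA, or its 5-base part TGACG, in capitals.
Cartpt, chr13:99900684-99900813, minus strand: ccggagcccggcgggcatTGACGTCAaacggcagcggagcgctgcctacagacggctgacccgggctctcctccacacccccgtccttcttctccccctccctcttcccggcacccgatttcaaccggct
Vip, chr10:5639088-5639217, plus strand: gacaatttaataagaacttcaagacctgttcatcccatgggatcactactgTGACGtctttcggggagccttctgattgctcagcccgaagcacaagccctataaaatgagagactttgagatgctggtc
Npy, chr6:49822580-49822709, plus strand: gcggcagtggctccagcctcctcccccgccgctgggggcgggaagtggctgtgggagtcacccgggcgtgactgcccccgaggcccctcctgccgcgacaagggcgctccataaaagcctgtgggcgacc
TGACGTCA lay at position -112 of Cartpt, TGACG at position -79 of Vip, and neither was in the 250 bases upstream of Npy. For Nos1, whose stretch is not printed, TGACG lay at position -130 on the opposite strand. That stretch (chr5:117866709-117866838) lies inside the Nos1 gene as annotated by GENCODE (117781032 to 117958840), so it is not upstream of the whole gene. Searched on both strands of the 250 bases upstream of 32851 RefSeq starts, TGACGTCA, which contains TGACG, was in 1.55% of promoters and TGACG in 17.8%. A match describes these letters and is not evidence of binding.

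Cartpt-Nos1 wells were present on every plate. Irradiated replicates 1, 2 and 3 held 36, 25 and 35 of them, and homeostasis replicates 1, 2 and 3 held 14, 27 and 24. Their median depth, averaged over the 6 plates, was 8858 ± 1296 UMIs per well (SD, n = 6), against 6354 ± 996 in Npy-Nos1 wells and 6486 ± 911 in the other retained wells together. The order was the same on 6 of 6 plates for both, so Cartpt-Nos1 wells were the more deeply sampled. Summed per plate, they gave 114563 to 323260 UMIs, against 68367 to 157973 for Npy-Nos1 wells and 287228 to 500540 for all other wells. The same 96 well barcodes served every plate. No doublet caller was run.

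Neuron markers were present, and markers of fibroblasts, muscle and immune cells were near 0. Of 10 neuron markers 9 had a UMI, with a summed level of 6770 to 8154 CPM (UMIs scaled to 1000000 UMIs of the class on a plate), against 7040 to 8341 CPM in the other wells; Uchl1 was at 0 in both. Summed enteric glia markers reached 118 to 248 CPM, against 205 to 773 CPM in the other wells, with Entpd2 at 0 in the Cartpt-Nos1 wells. Fibroblast markers summed to 0 to 34.0 CPM, against 0 to 577 CPM in the other wells, smooth muscle markers to 0 to 39.3 CPM, against 0 to 209 CPM, and immune markers to 11.1 to 52.8 CPM, against 18.2 to 45.3 CPM; Pdgfra, Tagln, Cnn1, Ptprc and Cd3e were at 0 in the Cartpt-Nos1 wells. Epithelial and tuft markers summed to 418.5 to 635 CPM, against 501 to 590 CPM in the other wells and 418 to 658 CPM in Npy-Nos1 wells. In the Cartpt-Nos1 wells 5 of 10 were detected, and Epcam, Krt8, Krt20, Trpm5 and Muc2 were at 0. The 5 detected were Krt18, Vil1, Pou2f3, Lgr5 and Chga. Of these Chga ran from 142 to 251 CPM, and the rest of the sum lay in the others. Markers of interstitial cells of Cajal summed to 20.3 to 59.1 CPM, against 4.03 to 34.8 CPM, with Ano1 at 0 and Kitl higher by 1.42 on the log2 scale (SE 0.35, adjusted p 0.0058, edgeR). Markers of extrinsic sympathetic and sensory neurons summed to 17.5 to 106 CPM, against 3.48 to 26.2 CPM, with Scn10a, Nppb and Tmem233 at 0. The part of these markers in the results was not tested.

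The class was not uniform in Nos1. Of the 161 wells, 108 held 10 or more Nos1 UMIs, 12 held 5 to 9 and 41 held 2 to 4, of which 29 sat exactly on the threshold. Just outside it, 80 wells held 1 Nos1 UMI with Cartpt at or above Npy. The wells at 2 to 4 Nos1 UMIs carried genes of another class: 30 of 41, or 73.2%, had at least 2 UMIs of Slc18a3, the vesicular acetylcholine transporter, against 4 of 108, or 3.70%, of the wells with 10 or more. Their median Vip count was 1 UMI, against 12, their median Ass1 count 4, against 40.5, and their median Tac1 count, the substance P precursor, 7, against 1. In those values they lay close to the wells with exactly 1 Nos1 UMI, whose medians were 1 for Vip, 4 for Ass1 and 7.5 for Tac1. By these counts the name nitrergic holds for the wells with 10 or more Nos1 UMIs and goes against the data of most wells with 2 to 4. Of the latter, 29 lay on irradiated and 12 on homeostasis plates. Nos1-low wells numbered 189 at 0 and 85 at 1 Nos1 UMI, and Cartpt-Nos1 wells 29, 9 and 3 at 2, 3 and 4. Whether a well with 2 to 4 held 2 cells, 1 cell with both sets of transcripts, or stray Nos1 RNA was not tested. Median depth of the wells with 2 to 4 Nos1 UMIs was 8388 UMIs, against 9179 in those with 10 or more. Several results below are therefore given both ways.

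**Figure D1:**
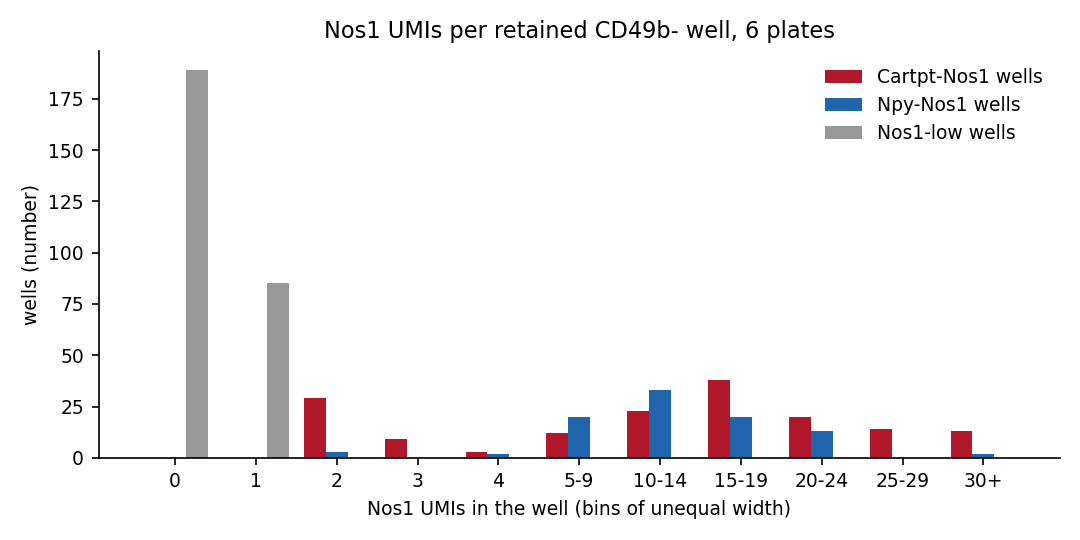
Number of retained CD49b- wells (vertical axis) by Nos1 UMIs in the well (horizontal axis, bins of unequal width) in Cartpt-Nos1, Npy-Nos1 and Nos1-low wells of the 6 plates together. The Cartpt-Nos1 wells form a group of 41 at 2 to 4 UMIs and a second of 108 at 10 or more, with 12 between.

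Background was read in wells sorted as glia on other plates, which cannot show stray RNA within the CD49b- plates. In the 436 retained CD49b+ wells, sorted as glia with a median of 2462 UMIs, 1.84% had a Nos1 UMI, 0.917% a Vip UMI and none a Bglap UMI, which allows a share of up to 0.688%. Cartpt had a UMI in 18.3%, Npy in 43.3% and Ass1 in 29.4% of them, so single UMIs of these 3 genes cannot be read as expression. Of the Cartpt-Nos1 wells, with a median of 8931 UMIs, 91.9% had a Vip UMI, 82.6% a Bglap UMI, 98.8% an Ass1 UMI and 99.4% a Cartpt UMI. After each well was thinned to 1000 UMIs these shares were 59.0% for Vip, 52.2% for Bglap, 87.0% for Ass1 and 82.6% for Cartpt. On the CD49b- plates, 189 Nos1-low wells held 0 Nos1 UMIs. Of these 52.9% had a Vip UMI, 63.5% a Bglap UMI, 87.3% an Ass1 UMI and 87.3% a Cartpt UMI. Thinned, their shares were 15.3%, 23.8%, 50.8% and 36.0%. Whether those UMIs were expression or stray RNA was not tested.

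The rule genes had these levels. Nos1 ran from 1363 to 1816 CPM over the 6 plates of Cartpt-Nos1 wells (median 1628), against 1874 to 2543 CPM in Npy-Nos1 wells (median 2132) and 29.6 to 70.7 CPM in Nos1-low wells (median 48.7). The 2 Nos1 classes did not overlap, and the lower values were in the Cartpt-Nos1 wells, which include the 41 wells of 2 to 4 UMIs. Cartpt ran from 2418 to 11290 CPM in Cartpt-Nos1 wells (median 6335), against 551 to 1848 CPM in Npy-Nos1 wells (median 724) and 237 to 1839 CPM in Nos1-low wells (median 522). Npy ran from 469 to 803 CPM in Cartpt-Nos1 wells (median 674), against 3086 to 5878 CPM in Npy-Nos1 wells (median 4394) and 49.4 to 162 CPM in Nos1-low wells (median 85.6). Npy in the Cartpt-Nos1 wells thus lay between the other 2 classes, and 126 of the 161 had at least 1 Npy UMI. Among the 254 wells with at least 2 Nos1 UMIs the margin between the 2 peptides was wide: Cartpt exceeded Npy by more than 3 UMIs in 143 and Npy exceeded Cartpt by more than 3 in 82, while 18 wells lay 0 to 3 UMIs inside the rule and 11 lay 1 to 3 UMIs outside it. In 3 Cartpt-Nos1 wells the 2 counts were equal, in 1 of them at 0.

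**Figure D2:**
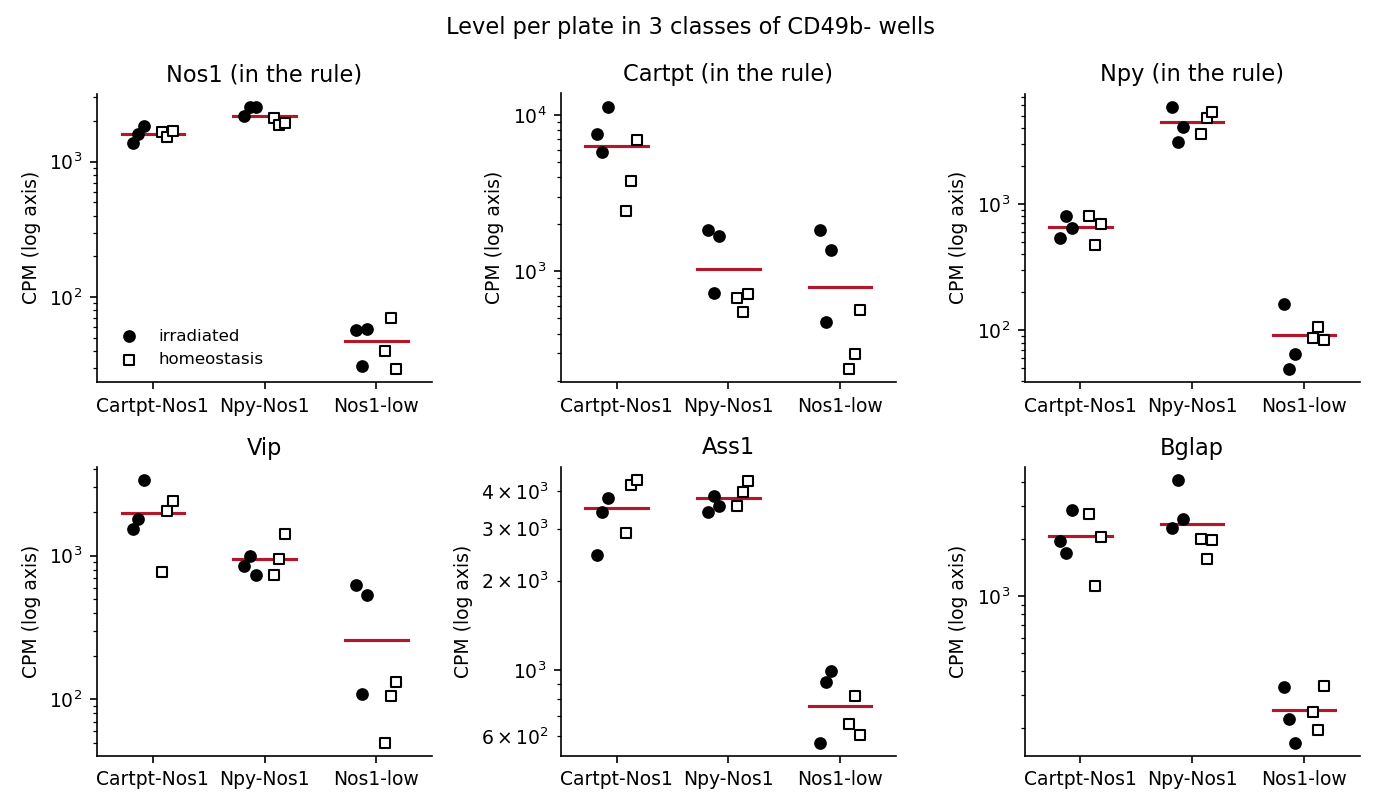
Level of 6 genes in CPM (vertical log axes) in Cartpt-Nos1, Npy-Nos1 and Nos1-low wells; each point is 1 plate, filled circles are irradiated and open squares homeostasis plates, and the red line is the mean of 6 plates. The mean of Vip is highest in Cartpt-Nos1 wells, with plates that overlap those of Npy-Nos1 wells, while Ass1 and Bglap overlap between the 2 Nos1 classes and lie far lower in Nos1-low wells.

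Vip, Ass1 and Bglap were named as markers with these data known, so their differences describe the class. Vip ranged from 768 to 3356 CPM in Cartpt-Nos1 wells (median 1920), against 181 to 700 CPM in the other wells (median 413), and was higher on 6 of 6 plates by 2.31 on the log2 scale (SE 0.12, adjusted p 7.89e-16, edgeR). Set against Npy-Nos1 wells, which ran from 729 to 1419 CPM, Vip was 1.02 higher on the log2 scale (SE 0.12, adjusted p 1.09e-09, edgeR), again on 6 of 6 plates although the ranges overlap. Ass1 averaged 3520 ± 750 CPM in Cartpt-Nos1 wells, against 3789 ± 340 CPM in Npy-Nos1 wells and 1512 ± 315 CPM in all other wells (SD, n = 6 each). It differed from the other wells (log2 fold change 1.29, SE 0.08, adjusted p 9.92e-14, edgeR) and not detectably from Npy-Nos1 wells (-0.10, SE 0.08, adjusted p 0.643). Bglap, which encodes the bone protein osteocalcin, averaged 2065 ± 646 CPM in Cartpt-Nos1 wells, against 2413 ± 888 CPM in Npy-Nos1 wells and 750 ± 174 CPM in the other wells, with log2 fold changes of 1.49 against the other wells (SE 0.13, adjusted p 2.53e-10) and -0.22 against Npy-Nos1 wells (SE 0.11, adjusted p 0.353). Vip thus averaged higher in Cartpt-Nos1 wells. The median wells were close, at 9.55 Vip UMIs per 10000 UMIs in Cartpt-Nos1 and 8.09 in Npy-Nos1 wells. Of the class, 19 Cartpt-Nos1 wells with at least 40 Vip UMIs held 2022 of the 3192 Vip UMIs of the class. Ass1 and Bglap were abundant in Nos1 wells of both classes. Bglap2 was lower than in Npy-Nos1 wells by 0.40 on the log2 scale (adjusted p 0.035, edgeR), a call lost with at least 5 Nos1 UMIs (adjusted p 0.98). Bglap and its neighbour Bglap2 lie on chromosome 3 (GRCm38, 88383501 to 88384464 and 88377736 to 88378699); 62.9% of the 31-base words of Bglap transcripts also occur in another gene, mostly Bglap2, and 43.1% of those of Ass1 occur in another gene, mostly the gene model Gm5424, so their counts are uncertain as to the gene of origin.

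Vip was itself unevenly spread. Among the 108 wells with at least 10 Nos1 UMIs, 17 held 46 to 207 Vip UMIs (median 103), and the remaining 91 held 1 to 37 (median 11). The 17 wells were deeper, with a median of 13220 UMIs against 8659, and scaled to 10000 UMIs they held a median of 187 Cartpt UMIs, against 51.9, and 0.622 Npy UMIs, against 6.93. Ass1 and Bglap differed less, at 50.5 against 42.6 and 15.8 against 16.1 UMIs per 10000. These wells combined the highest Vip with high Cartpt and almost no Npy; they were picked by their Vip counts, so this is a description. Irradiated replicates 1, 2 and 3 held 2, 2 and 7 of them, and homeostasis replicates 1, 2 and 3 held 0, 3 and 3. Across the 108 wells, which share plates and depth, Cartpt and Vip per UMI had a Spearman correlation of 0.484, and within plates of 9 to 28 wells it ran from -0.167 to 0.621.

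**Figure D3:**
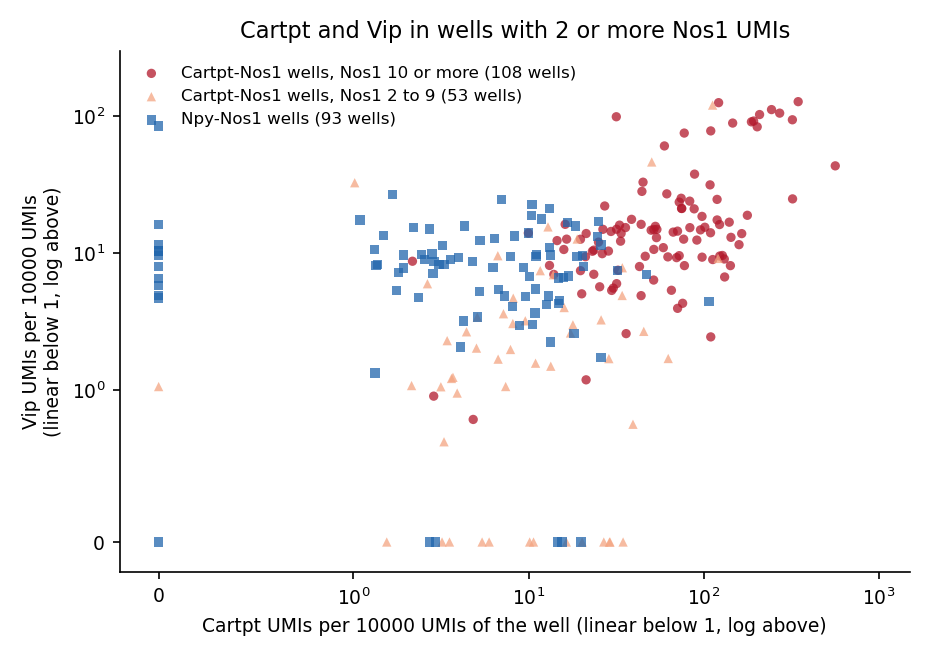
Vip against Cartpt UMIs per 10000 UMIs of the well, both axes linear below 1 and log above, for the 254 wells with at least 2 Nos1 UMIs; each point is 1 well. The Cartpt-Nos1 wells with the most Cartpt and Vip lie at the upper right, and the Npy-Nos1 wells lie to the left.

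Set against the other 367 retained CD49b- wells of the same plates, the Cartpt-Nos1 wells had more transcripts of Gal, Ltk, Ptgir and Etv1 and fewer of Slc18a3, Chat, Calb2 and Tac1. Several of these traits were shared with Npy-Nos1 wells, which are among the 367. There Slc18a3, Chat, Calb2 and Tac1 had medians of 25.2, 0, 198 and 179 CPM, against 115, 11.1, 319.5 and 546.5 CPM in Cartpt-Nos1 wells. The median of Ptgir there was 52.1 against 83.1 CPM, while that of Ltk was 10.5 against 65.55 CPM. Of 6860 genes tested in edgeR with the plate as a block, 287 (4.18%) were higher and 267 (3.89%) were lower in Cartpt-Nos1 wells at an adjusted p under 0.05, and the median log2 fold change over all genes was -0.0048. With the 41 wells of 2 to 4 Nos1 UMIs moved out by a threshold of 5, 390 were higher and 381 lower, and 501 of the 554 calls (90.4%) recurred in the same direction. All 24 genes named here by size of change and sign on 6 of 6 plates passed with that threshold too.

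The genes that were higher included the peptide galanin, a receptor tyrosine kinase and the prostacyclin receptor. Gal ran from 11500 to 53130 CPM in Cartpt-Nos1 wells (median 27210), against 2615 to 16880 CPM in the other wells (median 3868), or 2.55 higher on the log2 scale (SE 0.17, adjusted p 2.77e-13). The ranges overlap, yet Gal was higher on 6 of 6 plates. A few wells held most of it. Of the 161 wells 10, with 1654 to 3747 Gal UMIs each, had 56.4% of the 44951 Gal UMIs of the class. These wells had a median of 5.5 Cartpt and 1.5 Vip UMIs. The median well held 116 Gal UMIs per 10000 UMIs, against 22.5 in the other wells and 85.3 in Npy-Nos1 wells. Among genes higher on 6 of 6 plates with at least 20 CPM in 1 class, Krt23, a type I keratin, had the largest increase, 76.2 ± 53.9 against 9.25 ± 9.26 CPM (log2 fold change 3.09, SE 0.29). Ltk, a receptor tyrosine kinase, followed with 72.2 ± 20.2 against 11.6 ± 7.0 CPM (2.71, SE 0.29), and Ptgir, the prostacyclin receptor, with 77.6 ± 25.5 against 15.7 ± 8.1 CPM (2.31, SE 0.28). Crabp1, which binds retinoic acid in the cytoplasm, reached 105 ± 41 against 27.0 ± 20.5 CPM, and Gsg1l, an auxiliary subunit of AMPA-type glutamate receptors, 64.4 ± 19.9 against 16.6 ± 10.3 CPM. Cmah, which modifies sialic acid, Abhd3, a lipid hydrolase, Gng8, a G protein gamma subunit, Sparcl1, a secreted matrix protein, and Nrip3 completed the 12, which include Vip, with log2 fold changes of 2.60, 2.16, 2.12, 2.04 and 2.51. Abhd3 and Gng8 were close in Npy-Nos1 wells, with medians of 38.15 and 31.4 CPM, against 43.98 and 38.28 CPM in Cartpt-Nos1 wells.

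Among the genes that were lower, several were absent from the Cartpt-Nos1 wells with at least 5 Nos1 UMIs. Phgdh, the first enzyme of serine synthesis, averaged 2.56 ± 1.99 CPM, against 37.9 ± 20.5 CPM in the other wells (log2 fold change -3.59, SE 0.51), and all 4 of its UMIs in Cartpt-Nos1 wells came from wells of 2 to 4 Nos1 UMIs. The same held for the 11 UMIs of Ly6c2, a surface protein held by a lipid anchor (-3.43, SE 0.39), the 4 of Brinp2 (-3.35, SE 0.58), the 6 of Ffar3, a receptor for short-chain fatty acids (-2.83, SE 0.53), and the 8 of Bnc2, a zinc finger protein (-2.75, SE 0.45). Ngef, a guanine nucleotide exchange factor, was at 10.6 ± 7.4 against 72.4 ± 8.8 CPM (-2.78, SE 0.34), with 13 of 14 UMIs in those wells. Igfbp4, which binds insulin-like growth factors, Tcap, a sarcomere protein of muscle, Cbln1, a synapse organiser, Fbln5, an elastic fibre protein, and 1810041L15Rik were lower by 3.03, 2.88, 2.69, 2.65 and 2.66 on the log2 scale. Sst, the somatostatin gene, had the largest decrease among genes lower on 6 of 6 plates with at least 20 CPM in 1 class (22.7 ± 34.0 against 335 ± 633 CPM, -3.79, SE 0.24), but 716 of its 919 UMIs in the other wells lay in 1 well. The words of Phgdh and Ly6c2 were shared with other genes at 55.9% and 23.7%. Npy-Nos1 wells were low in most of these genes too. Their medians were 0 CPM for Phgdh, Ly6c2, Brinp2, Bnc2, Igfbp4 and Cbln1, 3.17 CPM for Ffar3 and 6.33 CPM for Ngef. Tcap, Fbln5 and 1810041L15Rik were at 32.4, 31.3 and 11.55 CPM there, against 8.43, 9.90 and 7.76 CPM in Cartpt-Nos1 wells.

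Of 10 tested genes of acetylcholine transmission, 4 were lower and 0 higher, with a median log2 fold change of -0.56. Slc18a3 ran from 83.5 to 161 CPM in Cartpt-Nos1 wells (median 115), against 334 to 465 CPM in the other wells (median 440), with no overlap (log2 fold change -1.74, SE 0.13, adjusted p 7.51e-12). Chat, which makes acetylcholine, Prima1, which anchors its esterase, and Slc5a7, which takes up choline, were lower by 2.02, 1.95 and 0.91. Of the 181 Slc18a3 UMIs in Cartpt-Nos1 wells 147 came from the 41 wells of 2 to 4 Nos1 UMIs, and with a threshold of 5 the level was 28.4 against 429 CPM (log2 fold change -3.78). Peptides and markers of the excitatory classes followed the same order: Calb2, the calcium buffer calretinin, was at 282 ± 130 against 1711 ± 227 CPM (-2.60, SE 0.14), Tac1 at 581 ± 311 against 1882 ± 389 CPM (-1.65, SE 0.13) and Penk, the enkephalin precursor, at 341 ± 377 against 703 ± 452 CPM (-1.11, SE 0.25, lower on 5 of 6 plates). Of 11 tested peptide and marker genes of other enteric classes, 3 were higher (Gal, Scgn and Adm) and 4 lower (Sst, Calb2, Tac1 and Penk). Scgn, the calcium sensor secretagogin, no longer passed with a threshold of 5 (-0.63, adjusted p 0.155).

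Of 16 tested genes of nitric oxide synthesis and signalling other than Nos1, 4 were higher and 3 lower (median 0.10). Higher were Ass1, Qdpr, which regenerates the cofactor tetrahydrobiopterin (567 ± 37 against 325 ± 57 CPM, 0.89, SE 0.09), Asl (411 ± 104 against 340 ± 53 CPM, 0.36, SE 0.11, on 4 of 6 plates) and Dynll1, a light chain that binds Nos1 (0.29, SE 0.08, on 4 of 6 plates). Lower were Gch1, the first enzyme in making that cofactor (145 ± 58 against 298 ± 71 CPM, -0.93, SE 0.12), Ddah1, which breaks down methylated arginines that inhibit the synthase (113 ± 70 against 266 ± 51 CPM, -1.28, SE 0.16), and Gucy1a3, a subunit of the nitric oxide receptor (-0.85, SE 0.16). The 2 genes of cofactor supply thus moved in opposite directions. Of the 5 tested VIP and PACAP genes 2 were higher, Vip and Adcy5, an adenylyl cyclase (38.3 ± 12.9 against 13.3 ± 7.2 CPM, 1.57, SE 0.37). All 3 osteocalcin genes were higher, Bglap2 by 1.47 (SE 0.12) and Bglap3 by 1.54 (SE 0.14). Several of these levels were close in Npy-Nos1 wells. Qdpr, Asl, Gch1 and Adcy5 had medians of 611, 499.5, 144 and 30.2 CPM there, against 573, 433, 137 and 38.6 CPM in Cartpt-Nos1 wells. Ddah1 and Gucy1a3 had medians of 72.1 and 126 CPM there, against 118 and 87.3 CPM.

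Transcription factors of enteric neuron fate differed in both directions, with 5 higher and 8 lower of 17 tested (median -0.56). Etv1, an ETS factor, ran from 350 to 679 CPM in Cartpt-Nos1 wells (median 480), against 99.7 to 232 CPM in the other wells (median 144), with no overlap (1.83, SE 0.14, adjusted p 4.48e-12); Npy-Nos1 wells, at 351 to 635 CPM, lay in the same range. Ebf1, Tbx3 and Klf7 were among the others that were higher, by 1.64, 1.16 and 0.62, and Bnc2, Casz1, Satb1, Tshz2, Ebf3, Hoxa5, Phox2a and Hoxb5 were lower, Casz1 by 2.05 and Satb1 by 2.03. Receptors for neurotrophic factors showed an exchange within a family: Gfra1, which binds GDNF, was at 70.7 ± 12.4 against 24.5 ± 16.5 CPM (1.66, SE 0.29), and Gfra2, which binds neurturin, at 22.2 ± 16.9 against 105 ± 21 CPM (-2.25, SE 0.27). Their shared signalling receptor Ret was higher by 0.44 (SE 0.11), the neurotrophin receptor Ngfr by 1.62 (SE 0.15) and Ece1, which activates endothelins, by 0.69 (SE 0.12, on 5 of 6 plates), so that 4 of 8 tested genes of this list were higher and 1 lower. Npy-Nos1 wells shared this pattern. Their medians were 94.55 CPM for Gfra1, 0 for Gfra2, 204.9 for Ngfr and 255.8 for Tbx3, against 67.59, 21.81, 211.1 and 161.5 CPM in Cartpt-Nos1 wells.

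Other lists gave mixed counts, and several balances changed with a threshold of 5 Nos1 UMIs. Of 15 genes of peptide processing and granules 1 was higher and 4 lower (1 and 6 with the threshold of 5), among them the granins Chgb (241 ± 71 against 691 ± 104 CPM, -1.49, SE 0.10) and Scg2 (1284 ± 160 against 2294 ± 236 CPM, -0.78, SE 0.07). Of 20 genes of cholesterol synthesis and uptake 5 were higher, among them Fdft1 and Hmgcs1 by 0.53 and 0.58, and 0 lower (median 0.41). Of 23 synaptic vesicle genes 5 were higher and 5 lower, or 4 and 7 with the threshold of 5, and Rab3b, a small GTPase of vesicles, was lower by 1.71. Voltage-gated and potassium channels gave 0 higher and 2 lower of 17 (2 and 3 with the threshold of 5). Monoamine, GABA and glutamate genes gave 2 and 2 of 9 (4 and 2), with Dbh, which makes noradrenaline, higher by 2.73. Calcium buffers and sensors gave 4 and 3 of 14 (2 and 2). Axon and cytoskeleton genes gave 5 and 2 of 21, which turned to 4 higher and 5 lower with the threshold of 5. Cell surface and adhesion genes gave 5 and 3 of 17 (5 and 4), with Alcam higher by 1.42 and Ly6c1 lower by 2.43. The sorting reporter gene Dclk1 was at 128 ± 36 against 141 ± 21 CPM (-0.03, SE 0.15, adjusted p 0.946). Of the glia and fibroblast genes tested, 2 of 4 and 3 of 3 were lower in edgeR, and DESeq2 called 1 and 0 of them, with S100b at 18.9 ± 10.3 against 51.4 ± 13.4 CPM and Dcn at 8.17 ± 11.3 against 118 ± 176 CPM; the part of stray glia or fibroblast RNA in the other wells was not tested.

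The nearest comparison was with the 93 Npy-Nos1 wells, which had passed the same Nos1 threshold. Here 84 genes (2.29%) were higher and 77 (2.1%) lower of 3663 tested in edgeR with the plate as a block, with a median log2 fold change of -0.010. Cox8b and 12 of 17 immediate early genes were lower in Cartpt-Nos1 wells, and Vip, Gal, Nrip3 and Ltk were higher. With a threshold of 5 Nos1 UMIs 64 were higher and 56 lower, and 103 of the 161 calls (64.0%) recurred in the same direction. Without irradiated replicate 3 the counts were 54 and 50. All 12 named genes on the lower side passed again, while on the higher side 7 of 12 could be tested and 6 passed.

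Cox8b, an isoform of a cytochrome c oxidase subunit best known from heart and muscle, had the largest decrease among genes lower on 6 of 6 plates with at least 20 CPM in 1 class, the rule gene Npy left out. It ran from 193 to 336 CPM in Cartpt-Nos1 wells (median 254), against 956 to 1764 CPM in Npy-Nos1 wells (median 1180), with no overlap (log2 fold change -2.32, SE 0.12, adjusted p 2.87e-22). The Nos1-low wells, at 22.6 to 83.9 CPM, had less still, so the summed levels graded over the 3 classes. Single wells were uneven. Cox8b had a UMI in 80 of the 161 Cartpt-Nos1 wells, with a median of 0 and a highest count of 34, against a median of 8 in Npy-Nos1 wells. The other respiratory chain genes did not share its direction: of 18 tested, 6 were higher, including the partner isoform Cox8a (1219 ± 80 against 1008 ± 101 CPM, 0.30, SE 0.09), and Cox8b alone was lower. Coch, an extracellular matrix protein, Lrfn5 and Nxph3, which act at synapses, Man1a, which trims glycans, Pxylp1, Csdc2, an RNA-binding protein, and Vwa3b were also lower, by 1.30 to 2.05 on the log2 scale. Ncam1, a neural adhesion molecule, and Scg2 were lower by 0.54 and 0.66, and Cryab, a small heat shock protein, was at 458 ± 118 against 942 ± 91 CPM (-1.01, SE 0.11).

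Immediate early genes, which cells transcribe within minutes of stimulation or handling, went 1 way where they passed. Of 17 tested, 12 were lower and 0 higher in Cartpt-Nos1 wells (10 and 0 with DESeq2), with a median log2 fold change of -1.02, against -0.010 for all genes, and 12 of 16 were lower with a threshold of 5 Nos1 UMIs. Zfp36, which promotes decay of messenger RNA, ran from 11.1 to 96.0 CPM in Cartpt-Nos1 wells (median 70.0), against 104 to 487 CPM in Npy-Nos1 wells (median 295), with no overlap (-2.15, SE 0.22, adjusted p 5.94e-11). Fos, a subunit of the AP-1 factor, was at 977 ± 218 against 2029 ± 270 CPM (-1.02, SE 0.10, lower on 6 of 6 plates), Dusp1, a phosphatase of MAP kinases, at 973 ± 207 against 2356 ± 686 CPM (-1.22, SE 0.09), Klf6 at 178 ± 38 against 535 ± 177 CPM (-1.47, SE 0.15) and Ier2 at 361 ± 101 against 930 ± 317 CPM (-1.30, SE 0.11). The wells of both classes came from the same plates and were handled together, and whether both respond to handling alike was not tested. For Fos the Npy-Nos1 wells stood apart from both other classes: its median over plates was 944 CPM in Cartpt-Nos1 wells, against 2120 CPM in Npy-Nos1 and 1149 CPM in Nos1-low wells. Against all other wells together 2 of 18 immediate early genes were higher and 4 lower, and with at least 5 Nos1 UMIs the balance turned to 7 higher and 2 lower. Npy-Nos1 wells had fewer UMIs per well, and the part of depth in this difference was not tested.

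**Figure D4:**
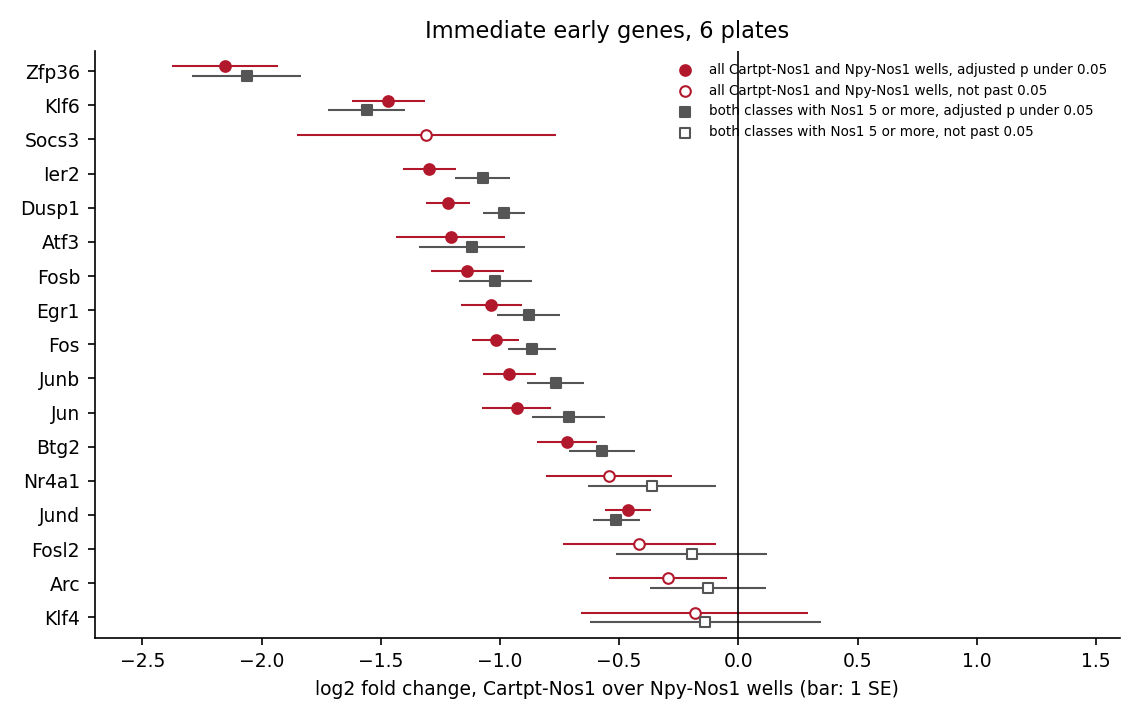
Log2 fold change of the 17 tested immediate early genes in Cartpt-Nos1 over Npy-Nos1 wells (horizontal axis; bars are 1 SE, 6 plates each) with all wells of both classes (circles) and with at least 5 Nos1 UMIs (squares); filled symbols passed an adjusted p of 0.05. All 17 lie below 0, and 12 passed in each test.

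On the higher side, Nrip3 (108 ± 43 against 18.4 ± 9.1 CPM, 2.49, SE 0.35), Ltk (2.39, SE 0.46), Pcp4, a calmodulin-binding protein (200 ± 100 against 24.9 ± 25.7 CPM, 3.03, SE 0.31), its relative Pcp4l1 (2.20, SE 0.30), Serpini1, the protease inhibitor neuroserpin (2.83, SE 0.31), and Parm1 (2.21, SE 0.37) passed with both thresholds. Gal (1.39, SE 0.09) and Dclk1 (1.10, SE 0.24) did so as well, with the Gal of the class held mostly in the 10 wells given above. Syt6, a synaptotagmin, Scgn, Myl1, a myosin light chain, Nrsn2 and Spock3, a proteoglycan, had log2 fold changes of 2.43 to 3.26 but too few counts to be tested with the threshold of 5. Penk was the exception that turned: 341 ± 377 against 51.9 ± 46.3 CPM in all wells (2.62, SE 0.24), and 46.7 against 49.2 CPM with at least 5 Nos1 UMIs (-0.0061, adjusted p 0.9996). Tac1 behaved likewise (1.37, SE 0.20, and 0.07 with the threshold of 5), and of its 908 UMIs 749 came from the 41 wells of 2 to 4 Nos1 UMIs. Of the transcription factors few differed between the 2 Nos1 classes, with 0 higher and 1 lower (Tshz2, -0.82, SE 0.22) of 10, and none of 14 nitric oxide genes passed (2 at an unadjusted p under 0.05 in edgeR, and 0 called by DESeq2).

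The share of wells that met the rule did not differ between treatments beyond the spread between plates when all UMIs were used. Irradiated replicates 1, 2 and 3 had 39.1%, 28.1% and 41.2% of their retained CD49b- wells in the class, against 15.1%, 34.6% and 26.4% in homeostasis replicates 1, 2 and 3. The means were 36.1% ± 7.0 and 25.4% ± 9.8 (SD, n = 3 each), and the ranges overlap (difference 10.8 points, two-sided exact permutation test, p = 0.2; 3 plates against 3 cannot go below 0.1). Of wells with at least 2 Nos1 UMIs, Cartpt-Nos1 wells made up 69.2% ± 4.7 on irradiated plates and 55.9% ± 9.1 on homeostasis plates (difference 13.2 points, exact permutation p = 0.1), the smallest p that the design allows, with the lowest irradiated plate at 65.5% and the highest homeostasis plate at 64.9%. With a threshold of 5 the differences were 4.67 and 9.96 points (exact permutation p = 0.5 and 0.3) in place of 10.8 and 13.2 points. Without homeostasis replicate 1 the first difference was 5.64 points. With wells thinned to 1000 UMIs the share of retained wells was 28.8% ± 9.7 on irradiated plates and 19.9% ± 2.4 on homeostasis plates, with no overlap (exact permutation p = 0.1, the smallest possible). In that setting some wells with fewer than 2 Nos1 UMIs before thinning passed as Nos1 wells. Its rule was therefore not the one used above, and its shares are not like for like. A share also moves with how many wells of other classes were sorted and retained.

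Irradiation changed 1 of 4611 tested genes in Cartpt-Nos1 wells at an adjusted p under 0.05 (0.0217%), and that gene was Penk, whose counts came almost wholly from wells with 2 to 4 Nos1 UMIs. At an unadjusted p under 0.05 there were 326 genes, and DESeq2 called 2, Penk and the ribosomal RNA gene model Rn18s-rs5 (0.94, adjusted p 0.038). Leaving out irradiated replicate 1 gave 9 higher and 3 lower genes, leaving out irradiated replicate 2 gave 3 higher and leaving out homeostasis replicate 3 gave 2. On simulated counts of this depth, without effects of pool, the test called 99 of 100 genes with a 4-fold and 54 of 100 with a 2-fold change. It also called 9 unchanged genes. So many planted changes make the adjusted threshold easier to pass than in a fit with 1 call. These shares therefore do not give the power of the real fit. Penk was at 361.5, 772 and 823 CPM in irradiated replicates 1, 2 and 3, against 26.2, 25.9 and 36.6 CPM in homeostasis replicates 1, 2 and 3 (log2 fold change 4.45, SE 0.35, adjusted p 7.62e-06, edgeR). The groups lay far apart. Of these counts, 522 of the 567 Penk UMIs on irradiated plates came from 29 wells with 2 to 4 Nos1 UMIs, and 210 from 1 well. Wells with at least 15 Penk UMIs numbered 8 among irradiated and 0 among homeostasis Cartpt-Nos1 wells, and all 8 held 2 to 4 Nos1 UMIs; among Nos1-low wells there were 17 on irradiated and 8 on homeostasis plates. In Cartpt-Nos1 wells with at least 5 Nos1 UMIs Penk averaged 68.1 ± 36.3 CPM on irradiated and 25.4 ± 7.2 CPM on homeostasis plates, too low to enter that test, in which no gene of 3564 passed (276 at an unadjusted p under 0.05; DESeq2 was not run at that threshold).

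**Figure D5:**
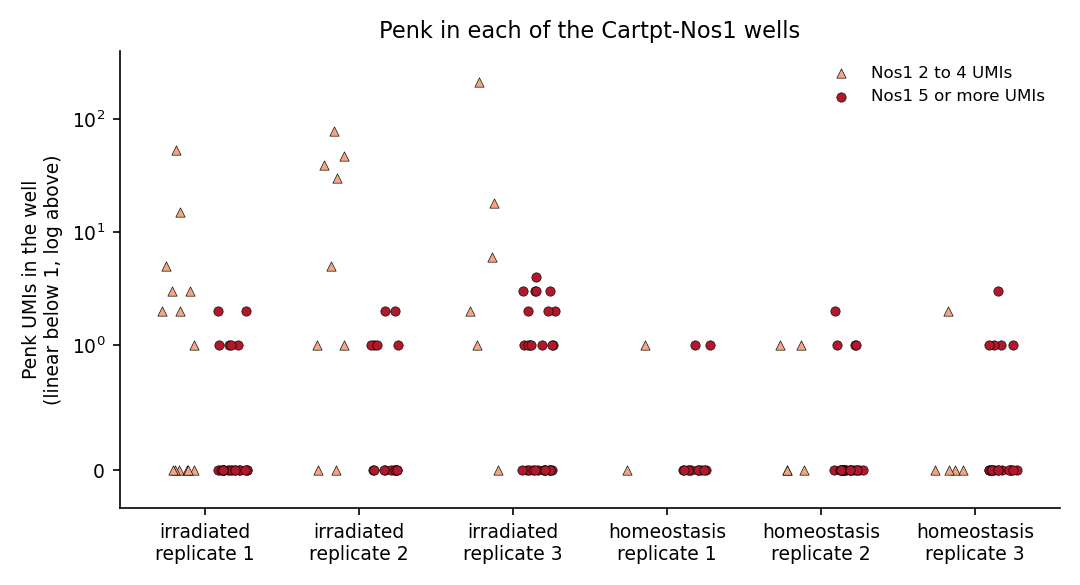
Penk UMIs (vertical axis, linear below 1 and log above) in each of the 161 Cartpt-Nos1 wells, by plate; triangles are wells with 2 to 4 and circles wells with 5 or more Nos1 UMIs, shifted sideways to show overlap. The 8 wells with 15 or more Penk UMIs are all triangles on irradiated plates.

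The difference between the irradiation effect in Cartpt-Nos1 wells and that in the other retained wells passed for 2 of 6860 genes (0.0292%), Penk and Ctcfl. For Penk the effect was larger in Cartpt-Nos1 wells by 3.80 on the log2 scale (SE 0.31, adjusted p 1.70e-09), and by 0.26 with at least 5 Nos1 UMIs (SE 0.42, adjusted p 1). In the other wells Penk was at 901 ± 538 CPM on irradiated and 506 ± 323 CPM on homeostasis plates (0.85, adjusted p 0.671). For Ctcfl, a paralogue of the insulator protein CTCF, the term was 5.68 (SE 0.54, adjusted p 4.83e-08), but 1 well barcode held 29 to 218 Ctcfl UMIs on all 12 plates, where no other well had more than 3, and 76 of the 110 Ctcfl UMIs in Cartpt-Nos1 wells lay in the 2 wells of that barcode. On the 3 homeostasis plates the well of that barcode was a Nos1-low well, so the value moves with the class that 1 barcode fell into. Scgn, chosen after its values were seen, passed at a threshold of 5 with -2.80 (SE 0.38). Of the 68 Scgn UMIs in homeostasis wells that enter that test 42 lay in 1 well.

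The 9 genes next to Penk in order of p did not pass in edgeR, at adjusted p values of 0.235 to 0.322, and are given as values. Cd24a, a surface glycoprotein, was at 247.5, 332.5 and 281.5 CPM in irradiated replicates 1, 2 and 3, against 52.4, 84.9 and 171 CPM in homeostasis replicates 1, 2 and 3 (1.41, SE 0.28, adjusted p 0.235). Arc, an activity-regulated gene of synapses, was at 39.3, 51.7 and 34.0 CPM against 157, 99.7 and 122 CPM (-1.51, SE 0.31, adjusted p 0.235), and Fdps, an enzyme of the cholesterol pathway, at 196.5, 163 and 155 CPM against 375, 321 and 301 CPM (-0.90, SE 0.19, adjusted p 0.235). The plates of these 3 genes did not overlap between treatments. Of the 315 Cd24a UMIs in Cartpt-Nos1 wells, 137 came from the 41 wells with 2 to 4 Nos1 UMIs. Of those 41 wells, 29 lay on irradiated and 12 on homeostasis plates. The part of those wells in the Cd24a difference was not tested. Over all 254 wells with at least 2 Nos1 UMIs, where both Nos1 classes were summed, Cd24a (1.48, SE 0.24, adjusted p 0.021), Arc (-1.44, SE 0.25, adjusted p 0.024) and Nr4a1, an immediate early nuclear receptor (-1.46, SE 0.25, adjusted p 0.024), passed beside Penk. The remaining 6 were Rn18s-rs5, A330069E16Rik, Txnl4b, Plk2, Clasp2 and Grb14, with log2 fold changes of 0.94, 2.45, -1.71, -1.15, -1.06 and -1.53.

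The rule genes and markers on irradiated and homeostasis plates were as follows. Cartpt was at 7560, 5767 and 11290 CPM in irradiated replicates 1, 2 and 3, against 2418, 3763 and 6903 CPM in homeostasis replicates 1, 2 and 3, and the groups overlap; being part of the rule, it was not tested here. Vip was at 1536, 1803 and 3356 CPM against 768, 2038 and 2389 CPM (0.37, SE 0.32, adjusted p 0.868), Ass1 averaged 3219 ± 704 and 3822 ± 797 CPM (-0.22, SE 0.19, adjusted p 0.862), Bglap 2161 ± 614 and 1970 ± 800 CPM (0.19, SE 0.25, adjusted p 0.909) and Gal 34260 ± 16390 and 23790 ± 10780 CPM (0.57, SE 0.34, adjusted p 0.796) on irradiated and homeostasis plates (SD, n = 3 each). Neither Gal nor any tested marker passed in this fit. With the plate number set as a term Gal passed (2.33, SE 0.19, adjusted p 9.38e-06). This value rests on irradiated replicate 1 and homeostasis replicate 1, since only their set holds both treatments. Irradiated replicates 1, 2 and 3 held 4, 1 and 1 of the 10 Gal-rich wells, and homeostasis replicates 1, 2 and 3 held 0, 2 and 2.

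No list for radiation response gave a called gene among its genes with enough counts to be tested. Of 25 listed p53 targets, 25 interferon genes and 19 DNA repair genes, 7, 5 and 1 were tested. Of 13 satellite-like gene models 0 were, so that list could give no call. The gene model Gm10800, not called in the main fit, passed in edgeR with a term for age (4.09, adjusted p 0.037) and without irradiated replicate 1 (4.92, adjusted p 0.00051). Of 7 tested p53 targets, 5 interferon genes, 6 antigen presentation genes, 13 heat shock genes, 12 genes of the unfolded protein and integrated stress response, 10 nerve injury genes, 4 apoptosis genes, 1 DNA repair gene and 18 respiratory chain genes 0 passed, with 1, 1, 3, 0, 1, 2, 1, 0 and 0 at an unadjusted p under 0.05 in edgeR, and DESeq2 called 0 of them. Cdkn1a, the cell cycle inhibitor that p53 induces, averaged 40.6 ± 22.6 CPM on irradiated and 22.5 ± 26.1 CPM on homeostasis plates (1.27, SE 0.70, adjusted p 0.751), with 33 and 10 UMIs. Cholesterol genes had a median log2 fold change of -0.53 over 18 tested, with 7 at an unadjusted p under 0.05 and 0 passing, and 15 immediate early genes had a median of -0.34, with 4 and 0; the median of all genes was 0.0063. Hmgcs1, an enzyme of the cholesterol list, was at 177, 240 and 248 CPM in irradiated replicates 1, 2 and 3, against 332, 351 and 520 CPM in homeostasis replicates 1, 2 and 3 (-0.84, SE 0.20, adjusted p 0.337). In the other retained wells, tested apart, 5 genes were higher and 2 lower after irradiation, none of them Penk. At an unadjusted p under 0.05 there were 507 of 6848.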

How the data were processed

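Single cells were sorted into 96-well plates, lysed and reverse-transcribed in the well, and sequenced as Nextera XT libraries, per the labels' protocols. The deposited table holds raw, unnormalised UMI counts of 50508 gene models in 1150 wells. STAR 2.5.3a, featureCounts 1.5.3, GRCm38 and GRCh38 are named in the submitters' processing notes, without the role of each build; how molecules were collapsed is not given in the sources used here.

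Counts were summed per plate and class, and CPM are UMIs scaled to a sum of 1000000. The test was edgeR 4.0.16 run in R 4.3.3 (TMM, filterByExpr, quasi-likelihood F test, Benjamini-Hochberg adjustment over all genes tested, threshold 0.05), and DESeq2 1.42.0 was an alternative. Classes were compared with the plate as a block, because both classes share each plate and its pool of mice. Irradiation was tested over 3 plates against 3. SEs are the absolute log2 fold change divided by the square root of F. Shares were compared with an exact permutation test in scipy 1.17.1 (Python 3.11.15, pandas 2.3.3, numpy 2.4.6). Tested on simulated counts, the settings called 100 of 100 genes with a 4-fold and 75 of 100 with a 2-fold change against the other wells (6860 genes), 100 and 71 against Npy-Nos1 wells (3663 genes), 99 and 54 for irradiation (4611 genes) and 60 and 30 for the difference of irradiation effects (6860 genes). Each simulation held 100 changed genes of each size, and 8, 11, 9 and 6 unchanged genes were called, in that order.

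Named are the rule genes and markers, up to 12 genes a direction with the largest change among those called, with the same sign on 6 of 6 plates and at least 20 CPM in 1 class, the 10 genes with the smallest p for irradiation, and examples from gene lists. The wells, markers and lists were chosen with earlier results of these data known. Intervals and limits from 0 counts cover counting error only. Positions are from GENCODE annotation of GRCm38. Alternatives were DESeq2, no filter on low counts, a stricter well filter (2000 UMIs and 1000 genes), a Nos1 threshold of 5 UMIs, wells thinned to 1000 UMIs, wells with equal Cartpt and Npy left out, no block, terms for age or plate number set, and leaving out each plate. Some genes of the lists enter the counts but are not reported here by name.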

Additional observations from a re-analysis of the deposited data

Results flagged for a closer look

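For Penk the irradiation effect in Cartpt-Nos1 wells exceeded that in the other retained CD49b- wells by 3.80 on the log2 scale (adjusted p 1.70e-09, edgeR), and by 0.26 (adjusted p 1) in wells with at least 5 Nos1 UMIs. Of the 567 Penk UMIs in irradiated Cartpt-Nos1 wells, 522 lay in 29 wells with 2 to 4 Nos1 UMIs.

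For Ctcfl the same difference was 5.68 (adjusted p 4.83e-08, edgeR), with 76 of 110 UMIs in 2 wells of 1 barcode, which held the most Ctcfl on 12 of 12 plates.

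Outside the CD49b- gate, 2 of 213 retained irradiated CD49b+ wells met the rule (0.939%, exact 95% interval 0.114 to 3.35%), and 1 of 223 homeostasis CD49b+ wells did (0.448%, 0.0114 to 2.47%). The irradiated wells held 12699 and 13170 UMIs, against a median of 2462 UMIs over CD49b+ wells, and the homeostasis well held 2586. The irradiated wells held 11 and 3 Cartpt and 0 Vip UMIs, and the homeostasis well held 0 UMIs of Cartpt, Npy, Vip and Snap25, so it met the rule by a tie at 0.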

How the results depend on the processing

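Against the other wells, the 287 higher and 267 lower genes became 132 and 122 with DESeq2, 39 and 37 with wells thinned to 1000 UMIs, 136 and 119 with no replicate block, and 198 to 280 and 185 to 265 with 1 plate left out. Against Npy-Nos1 wells, the 84 and 77 became 33 and 31 with DESeq2, 138 and 44 with no filter, 8 and 13 thinned, 30 and 34 with no replicate block, and 54 to 97 and 50 to 70 with 1 plate left out. Thinning leaves fewer counts; the cause of the other changes was not tested.

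For irradiation, the 1 higher and 0 lower genes became 2 and 0 with DESeq2, with a term for age and with one for plate number set (Penk and Gal), 30 and 13 with no filter, 0 and 0 with at least 5 Nos1 UMIs, 2 and 2 over all Nos1 wells, and 1 to 9 and 0 to 3 with 1 plate left out. Penk was called under 14 settings, at 3.42 to 4.72 on the log2 scale. Only 1 number set holds both treatments, so the effects of set and treatment rest on 1 plate of each there. The difference of irradiation effects gave 5 higher and 1 lower with no filter, 1 and 1 with at least 5 Nos1 UMIs, 1 and 0 thinned, and 2 to 3 and 0 with 1 plate left out. The share differences ran from 5.64 to 15.4 points of retained and 8.61 to 17.7 points of Nos1 wells with 1 plate left out. Penk against Npy-Nos1 wells turned to -0.0061 with at least 5 Nos1 UMIs. Of values for named genes, 1207 kept direction and call and 118 lost the call against the other wells, and 548 and 109 did against Npy-Nos1 wells.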
